A study of Sus scrofa with 40 samples.

Results

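The calpain system of pig meat was followed through 5 genes: the proteases CAPN1, CAPN2 and CAPN3, the small subunit CAPNS1 and the inhibitor calpastatin, CAST. They were picked by symbol from the 21280 genes of the deposited count table, and each symbol had 1 row. All 5 were among the 11713 genes that passed the filter on low counts. Messenger RNA was sequenced in 40 libraries, 10 from each of 4 cuts of Chalu black pigs, a pork breed. LDM is the longissimus dorsi, a back muscle, and HM the hamstring of the leg. TM is the trapezius, which covers the shoulder, and PB the pork belly. The pigs were males from 1 sire, kept under shared housing and feeding. Tissue of all 4 cuts came from the left side of carcasses of fasted pigs, was taken within 45 minutes after death and freed of fascia. Total RNA was extracted with Trizol, and a stranded KAPA kit was used for the libraries. The libraries of a cut are numbered 1 to 10 in the labels, which do not say that a number marks a pig. Nor do they say how many pigs gave the 40 libraries, so p-values measure the spread between these libraries.

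Calpains are cysteine proteases that calcium switches on. CAPN1 (µ-calpain) and CAPN2 (m-calpain) each pair with the small subunit CAPNS1, and calpastatin binds and blocks these pairs. After slaughter CAPN1 cuts proteins of the sarcomere and its anchors, which softens meat, and a high level of calpastatin is known to go with slower softening. CAPN3 is the calpain of skeletal muscle: it sits on titin in the sarcomere, needs no CAPNS1 and is not blocked by calpastatin, and its loss causes a limb girdle muscular dystrophy in people. The comparison of cuts asks how the messenger RNA of protease and inhibitor was balanced in each of them. Enzyme activity was not measured in these data.

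Total counts ran from 12305913 to 17735722 per library. Over the 6695 genes that differed among the cuts, 38 of 40 libraries lay nearest to the mean of their own cut, while HM9 and TM7 lay nearest to LDM. PB1 is titled as belly although 2 other label fields call it longissimus. It lay nearest to PB (r = 0.73 with the PB mean, after each gene's mean over all libraries was taken out). Each cut mean included the library itself, and the genes were chosen with libraries placed by title. That favours the titled cut, so this placing cannot decide the label of PB1.

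Per kilobase of the gene models, CAPN3 was the most abundant of the 5 genes in 40 of 40 libraries. Its FPKM (reads scaled by gene length and library total) averaged 177.5 over the 40 libraries, 11.7 times the 15.2 of CAPN1. CAPN2 averaged 38.2 FPKM and was above CAPN1 in 40 of 40 libraries. CAST averaged 17.5 FPKM and CAPNS1 13.1 FPKM, close to CAPN1. The order of CAST and CAPN1 depended on the cut: CAST had the higher FPKM in 3 of 10 LDM libraries, 5 of 10 HM libraries, 6 of 10 TM libraries and 10 of 10 PB libraries. These levels rest on the lengths in the table. The CAPN1 model spans 83.9 kb (Sscrofa11.1, chromosome 2, 6997516 to 7081432, minus strand) against 26.9 kb in RefSeq, and 7 other gene models lie within that span.

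Of the 5 genes, 4 differed among the cuts by the F test of edgeR (adjusted p under 0.05), where 57.2% of all genes tested did. CAPN2 alone did not. PB against LDM had 1 member higher and 3 lower, where 20.5% of all genes were higher and 21.2% lower. PB against HM had 1 higher and 1 lower, against 13.5% and 14.1% of all genes. PB against TM had 1 higher, against 13.4% of all genes. Members were lower in TM than in LDM in 2 cases, where 13.4% of all genes were, and lower in HM than in LDM in 2 cases, where 16% were.

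Several directions held none of the 5. By edgeR, 0 members were lower in PB than in TM, where 9.69% of all genes were. That count was 1 at an unadjusted p under 0.05, 0 by DESeq2 and 1 by limma-voom, and the gene was CAPNS1. By edgeR, 0 members were higher in TM than in LDM (11.3% of all genes) or higher in HM than in LDM (16.5%). For TM against HM the count was 0 in both directions, where 0.41% of all genes were higher and 0.359% lower. In these last comparisons the count was also 0 at an unadjusted p under 0.05, by DESeq2 and by limma-voom. The share of higher among all genes called moved with the scaling between libraries. It went from 49% to 63.1% in PB against HM and from 58.1% to 71.4% in PB against TM with the mitochondrial genes taken out first. With LDM6 as the TMM reference it was 63.9% and 69.2% in these pairs. With upper-quartile scaling it was 47.3% in PB against TM and went from 45.7% to 56.9% in TM against LDM.

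**Figure D1:**
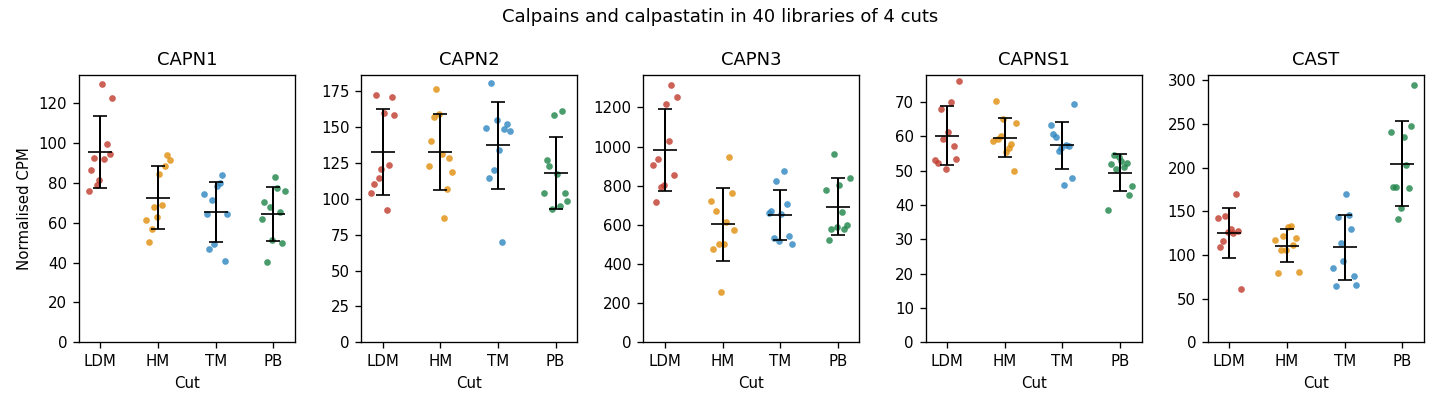
Normalised read counts (CPM, linear axes from 0) of the 5 genes in each of the 40 libraries, by cut; points are libraries and bars are mean ± SD over 10. CAPN1 and CAPN3 sit highest in LDM, CAST sits highest in PB (141.5 to 295), and the cuts overlap widely for CAPN2.

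CAPN1, the µ-calpain of post-mortem softening, was higher in LDM than in each of the other cuts. In LDM its normalised read count, scaled to library size (CPM), ran from 76.0 to a median of 92.2 and a highest value of 129.7 CPM. In HM the lowest, median and highest values were 50.1, 68.3 and 94.0 CPM. In TM they were 40.9, 68.0 and 83.9 CPM, and in PB 40.2, 66.6 and 82.8 CPM. Most libraries of the other cuts lay under the lowest LDM library: 8 of 10 PB libraries, 7 of 10 TM libraries and 6 of 10 HM libraries. HM9, at 94.0 CPM, lay above the LDM median. All PB and all TM libraries lay under the LDM median. The mean was 95.4 ± 17.9 CPM (SD, n = 10) in LDM and 64.3 ± 13.6 CPM (SD, n = 10) in PB, a log2 difference of -0.57 ± 0.14 (SE, adjusted p = 0.00131), or 1.48-fold lower in PB. TM differed from LDM by -0.54 ± 0.14 on the log2 scale (adjusted p = 0.0039). HM differed from LDM by -0.39 ± 0.14 (adjusted p = 0.0281). That last call sat near the threshold: it was lost when LDM6, LDM8, LDM10, HM2, HM3, HM4 or HM7 was left out (adjusted p 0.053 to 0.0688), and with upper-quartile scaling or no filter. Among HM, TM and PB the log2 differences lay between -0.18 and -0.03 and none passed (lowest adjusted p = 0.367).

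Reads of other genes may stand in the CAPN1 row. Inside the CAPN1 model, MRPL49 (a mean of 115.4 counts per library) and ZNHIT2 (107 counts) had the highest counts in their own rows. Reads of these genes that were counted in the CAPN1 row, or dropped, do not show in such counts. FAU, inside the model on the other strand, is listed with a mean of 0.025 counts. How the counting used the strand is not given in the sources. MRPL49 lies on the same strand as CAPN1 and passed in no pair, with log2 differences from -0.13 to 0.14 (adjusted p 0.469 to 0.98). The median count of CAPN1 itself was 1088.5. ZNHIT2, on the other strand, was also lower in PB than in LDM (-0.67 ± 0.19, adjusted p = 0.00539), in TM (-0.51 ± 0.19, adjusted p = 0.0489) and in HM (-1.08 ± 0.20, adjusted p = 8.04e-05). Its part in the CAPN1 difference was not tested.

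CAPN2, the m-calpain that needs more calcium than CAPN1, had no difference between cuts that passed. In LDM the lowest, median and highest values were 91.9, 122 and 172 CPM. They were 86.6, 130.0 and 177 CPM in HM, 70.1, 148 and 181 CPM in TM, and 92.6, 110.7 and 161 CPM in PB. The ranges of all 4 cuts overlapped, and the lowest of the 40 libraries was TM7. The 6 log2 differences lay between -0.22 (PB against TM, SE 0.14, adjusted p = 0.278) and 0.05, and the F test gave an adjusted p of 0.51. The CAPN2 model (Sscrofa11.1, chromosome 10, 19758762 to 19851989, plus strand) overlaps TP53BP2 on the other strand by 28057 bases. TP53BP2 averaged 1131 counts and reached 5414 counts in a library, against a CAPN2 median of 1933.5 counts, so the CAPN2 values are uncertain.

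CAPNS1, the subunit shared by CAPN1 and CAPN2, varied least between libraries, with a coefficient of variation of 9.55% to 14.3% within a cut. In PB the lowest, median and highest values were 38.5, 51.7 and 54.5 CPM. They were 50.7, 58.4 and 76.1 CPM in LDM, 49.8, 58.9 and 70.4 CPM in HM, and 45.8, 57.4 and 69.6 CPM in TM. The belly libraries were low as a group, all 10 under the median of each other cut, but their range overlapped all 3 others. PB was lower than LDM by -0.28 ± 0.09 on the log2 scale (SE, adjusted p = 0.00734), or 1.22-fold, and lower than HM by -0.27 ± 0.09 (adjusted p = 0.0154). Against TM the difference was -0.22 ± 0.09 and did not pass (adjusted p = 0.0613). LDM, HM and TM differed from each other by -0.07 to -0.01 log2 units and none of these differences passed (lowest adjusted p = 0.599).

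The CAPNS1 calls were the least stable of the 5 genes. Without LDM7 the difference between PB and LDM was -0.21 (adjusted p = 0.0533). PB against HM was lost when LDM5, LDM7, LDM9, HM9, TM3 or TM8 was left out (adjusted p 0.0662 to 0.109), and in exactly these fits the library that TMM scaling takes as its reference was LDM6 in place of HM7. With all 40 libraries kept and LDM6 set as the reference, a setting chosen after the data were seen, the difference was -0.19 (adjusted p = 0.101). It was also lost with the mitochondrial genes out before scaling (-0.19, adjusted p = 0.0949). The share of counts on the mitochondrial genome was 12.5 ± 1.96% for PB libraries (SD, n = 10), 9.12 ± 1.53% for HM, 7.53 ± 1.8% for TM and 4.97 ± 0.827% for LDM.

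Another gene lies inside the CAPNS1 model (Sscrofa11.1, chromosome 6, 45511339 to 45520859, plus strand). COX7A1, the muscle form of a subunit of cytochrome c oxidase, is on the other strand and is listed with a mean of 0.475 counts per library. The CAPNS1 model is 9.5 kb long against 7.2 kb in RefSeq, and whether reads of COX7A1 stand in the CAPNS1 row was not tested.

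CAPN3, the titin-bound calpain of skeletal muscle, shared with CAPN1 its high level in LDM. In LDM the lowest, median and highest values were 719, 920.1 and 1314 CPM. In HM they were 259, 595 and 945 CPM, in TM 502, 659 and 873 CPM, and in PB 523, 632 and 965 CPM. Of the other cuts, 8 of 10 TM libraries, 7 of 10 HM libraries and 6 of 10 PB libraries lay under the lowest LDM library, so the ranges overlapped at their edges. HM5 was the lowest of the 40 libraries. The mean was 983 ± 211 CPM (SD, n = 10) in LDM and 603 ± 188 CPM (SD, n = 10) in HM, a log2 difference of -0.70 ± 0.16 (SE, adjusted p = 0.00082), or 1.63-fold lower in HM. TM was lower by -0.60 ± 0.16 (adjusted p = 0.00483) and PB by -0.51 ± 0.16 (adjusted p = 0.00971). HM, TM and PB differed among themselves by 0.09 to 0.20 log2 units and none of these passed (lowest adjusted p = 0.363). No other gene model overlaps CAPN3 (Sscrofa11.1, chromosome 1, 128960121 to 129013547, minus strand), and its median of 10029.5 counts per library was the deepest of the 5.

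CAST, the inhibitor of CAPN1 and CAPN2, was higher in PB than in each of the other cuts. In PB the lowest, median and highest values were 141.5, 190.5 and 295 CPM. They were 60.8, 127 and 169.9 CPM in LDM, 79.0, 114 and 133 CPM in HM, and 64.7, 103 and 169.9 CPM in TM. All 10 PB libraries lay above all HM libraries, and 8 of 10 lay above the highest LDM and the highest TM library. The low end of LDM was LDM10 alone, with the next LDM library at 109 CPM. The PB mean was 204.8 ± 48.4 CPM (SD, n = 10) and the TM mean 109 ± 37.2 CPM (SD, n = 10), a log2 difference of 0.91 ± 0.17 (SE, adjusted p = 9.58e-05), or 1.88-fold. PB was 1.85-fold above HM (0.89 ± 0.17, adjusted p = 0.000116) and 1.64-fold above LDM (0.71 ± 0.17, adjusted p = 0.00076). LDM, HM and TM differed by -0.20 to -0.03 log2 units and none of these passed (lowest adjusted p = 0.385).

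The higher CAST level of PB passed under every alternative run, with adjusted p no higher than 0.00229 against LDM, 0.000406 against HM and 0.00118 against TM. Without PB1 the 3 differences were 0.68, 0.86 and 0.89 log2 units. CAST is a long gene model of 7869 bases, longer than 85.2% of the genes tested or equal to them. Across genes, longer models tended to be higher in PB, with a Spearman correlation of log2 difference and length of 0.16 to LDM, 0.10 to HM and 0.14 to TM over 11713 genes, which are not independent replicates. With that length trend taken out of each library, a correction chosen after the data were seen, the 3 differences were 0.60, 0.86 and 0.87 log2 units (highest adjusted p = 0.00135). The CAST model (Sscrofa11.1, chromosome 2, 103255630 to 103378623, plus strand) shares 195 bases with ERAP1 on the other strand. ERAP1 was higher in PB than in LDM (0.48 ± 0.14, adjusted p = 0.00784), and its log2 difference between PB and HM was -0.02 (adjusted p = 0.94). Its part in the CAST differences was not tested.

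**Figure D2:**
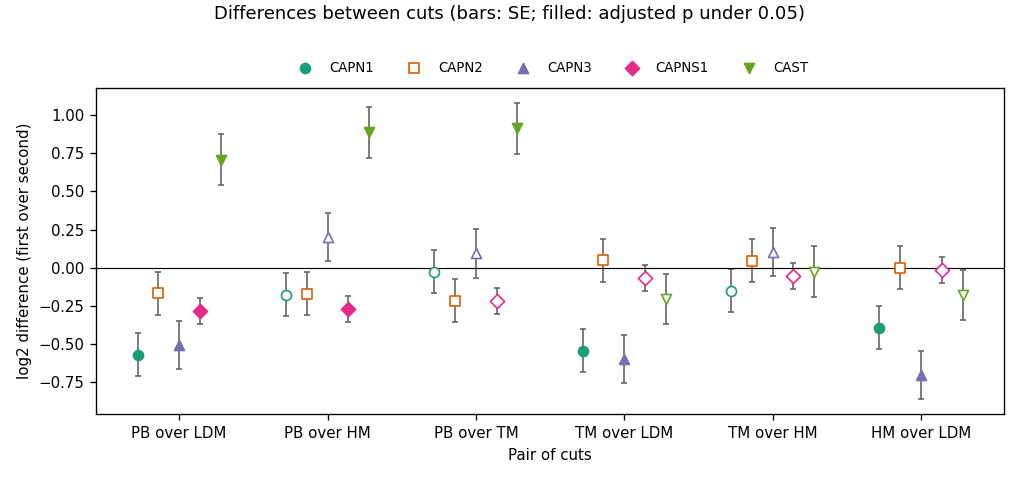
Log2 difference of each gene in the 6 pairs of cuts, first cut over second, with the SE of the edgeR fit; filled symbols have an adjusted p under 0.05. CAST lies at 0.71 to 0.91 in the 3 pairs with PB first, and CAPN1 and CAPN3 lie at -0.39 to -0.70 in the 3 pairs with LDM second.

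The ratio of CAST to CAPN1 was taken within each library from the FPKM, so that scaling between libraries does not enter. The trend with gene length can still enter, as the CAST model has 7869 bases and the CAPN1 model 4964. Its part in the ratios, and that of other genes' reads in the CAPN1 and CAPN2 rows, was not tested. In LDM the lowest, median and highest ratios were 0.312, 0.859 and 1.18. They were 0.558, 1.03 and 1.22 in HM, 0.633, 1.08 and 1.94 in TM, and 1.31, 1.84 and 3.14 in PB. All 10 PB libraries had a higher ratio than any LDM or HM library, and 4 of 10 lay above the highest TM library, TM3. CAST exceeded CAPN1 in every PB library, and LDM10, with the lowest CAST and the second highest CAPN1 of its cut, had the lowest ratio of all 40.

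The mean ratio was 2.08 ± 0.594 (SD, n = 10) in PB and 0.864 ± 0.26 (SD, n = 10) in LDM. On the log2 scale PB was above LDM by 1.30 ± 0.22 (SE), or 2.46-fold (two-sided permutation test with 100000 resamples, adjusted p = 6e-05 over 6 pairs). PB was 2.07-fold above HM, whose mean was 0.993 ± 0.215 (log2 difference 1.05 ± 0.17, adjusted permutation p = 6e-05). These p-values rest on a raw p of 2e-05, the smallest that the resamples can give. PB was 1.97-fold above TM, whose mean was 1.08 ± 0.391 (0.98 ± 0.21, adjusted permutation p = 0.00052). LDM, HM and TM stood in this order, but their neighbours differed by 0.25 ± 0.21 (HM against LDM, adjusted permutation p = 0.332) and 0.07 ± 0.20 log2 units (TM against HM, adjusted permutation p = 0.71), within the spread of the libraries. Across the 4 cuts the permutation p was 1e-05, again the smallest possible.

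Against LDM, the ratio of PB was made of both parts: CAST 1.64-fold higher and CAPN1 1.48-fold lower. Against HM and TM only the CAST part passed its test.

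**Figure D3:**
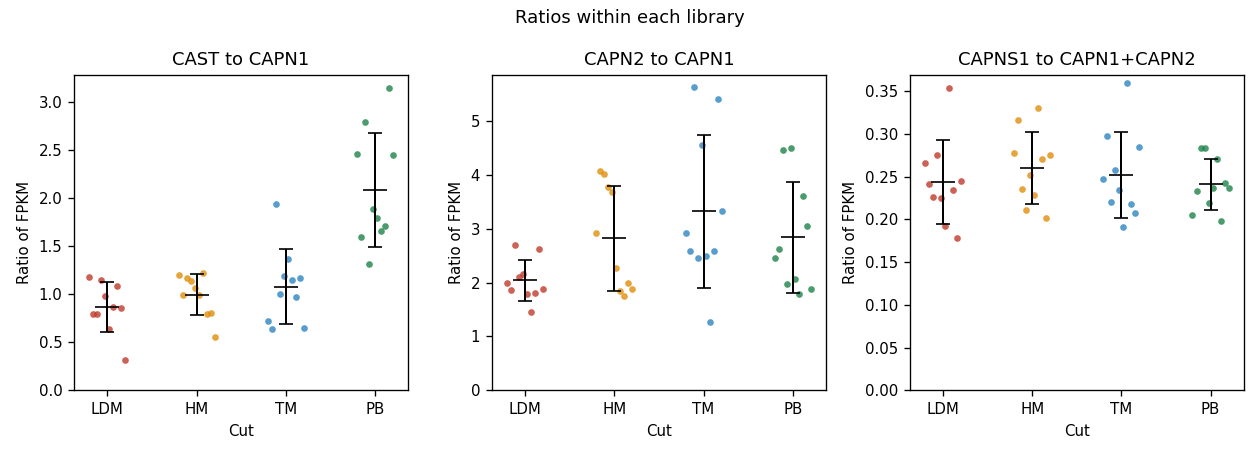
Ratios of FPKM within each library (linear axes from 0) by cut, for CAST to CAPN1, CAPN2 to CAPN1 and CAPNS1 to the sum of CAPN1 and CAPN2; points are libraries and bars are mean ± SD over 10. CAST to CAPN1 runs from 1.31 to 3.14 in PB and from 0.312 to 1.94 in the other cuts. In this ratio PB overlaps TM but not LDM or HM, and LDM, HM and TM overlap each other. The other ratios shown overlap in all cuts.

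With both ubiquitous calpains in the denominator the belly still stood apart. The ratio of CAST to the sum of CAPN1 and CAPN2 was 0.562 ± 0.173 (SD, n = 10) in PB, 0.287 ± 0.0922 in LDM, 0.268 ± 0.0703 in HM and 0.266 ± 0.112 in TM. PB was 1.99-fold above LDM, 2.06-fold above HM and 2.18-fold above TM (adjusted permutation p = 0.0016, 0.00096 and 0.0016 over 24 tests of 4 ratios). Here 8 of 10 PB libraries lay above the highest LDM library, 8 above the highest HM library and 6 above the highest TM library.

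The balance among the proteases themselves had no pairwise difference that passed. CAPN2 to CAPN1 was 2.04 ± 0.383 for LDM (SD, n = 10), 3.32 ± 1.42 for TM, 2.84 ± 1.03 for PB and 2.82 ± 0.979 for HM. The lowest adjusted p was that of TM against LDM, 1.52-fold (log2 difference 0.60 ± 0.22, adjusted permutation p = 0.0792), and 5 of 10 TM libraries lay above the highest LDM library. The wide spread of TM came from TM3, TM5 and TM9, at 4.55 to 5.64, and TM7, at 1.27. CAPN3 to CAPN1 ran from a mean of 10.1 ± 3.07 in HM to 13.2 ± 2.84 in PB (lowest adjusted permutation p = 0.132). Across the 4 cuts its permutation p was 0.0318, or 0.053 adjusted over 5 ratios, and that of CAPN2 to CAPN1 was 0.0669 (0.0836 adjusted). CAPNS1 to the sum of CAPN1 and CAPN2 stayed between means of 0.241 and 0.260, with log2 differences from -0.10 to 0.10 (lowest adjusted permutation p = 0.682).

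Fibre genes differed between LDM and each of the other cuts. Of 10 slow fibre genes tested, such as ATP2A2, MYL2 and TPM3, 10 were higher in PB, in TM and in HM than in LDM. Of 11 fast fibre genes, such as MYBPC2, CASQ1 and ACTN3, 10 were lower in each of these cuts than in LDM. The summed slow list ran from 7060 to 25100 CPM in LDM, 13900 to 82200 in HM, 8950 to 123000 in TM and 26000 to 66400 in PB. The summed fast list ran from 65800 to 117000 CPM in LDM, 20500 to 80000 in HM, 13800 to 64000 in TM and 26800 to 78500 in PB. Between PB and HM, 0 of 10 slow genes passed by edgeR, and 0 also had an unadjusted p under 0.05. Of the fast genes 1 of 11 was lower in PB than in HM, PVALB. As these are bulk samples, fewer cells of a type and less RNA per cell cannot be told apart. The part of fibre type in the CAPN1, CAPN3 and CAST differences was not tested.

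A fibre index was computed per library as the mean log2 CPM of the slow list less that of the fast list. It averaged -2.95 ± 0.572 for LDM (SD, n = 10), 0.26 ± 1.59 for TM, -0.22 ± 0.825 for PB and -0.44 ± 1.52 for HM. HM9 and TM7, at -3.10 and -3.02, lay within the LDM range of -4.04 to -2.24. HM9 had the highest CAPN1 of HM, and its CAPN3 was 763 CPM, under the 945.5 CPM of HM8. TM7 had the highest CAPN3 of TM, and its CAPN1 was 80.1 CPM, under the 83.9 CPM of TM8. CAPN2 was 128 CPM in HM9. In TM7 it was 70.1 CPM, the lowest of TM and under the lowest LDM library (91.9 CPM).

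**Figure D4:**
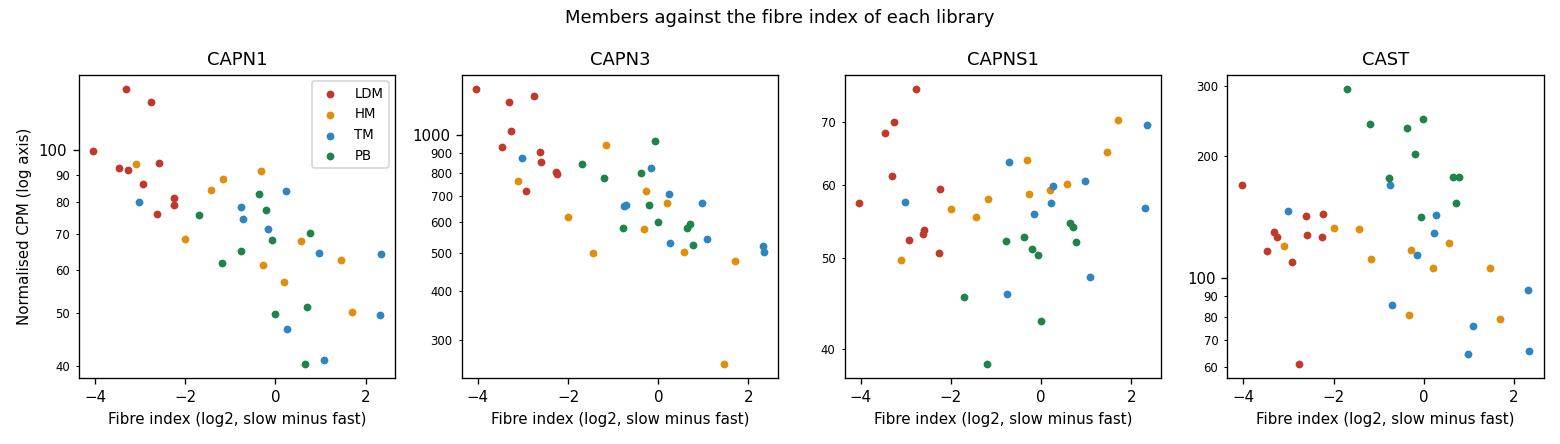
Normalised CPM (log axis) of 4 genes against the fibre index of each library (log2, slow list minus fast list), coloured by cut. LDM libraries lie at the left with high CAPN1 and CAPN3, and the highest CAST values, up to 295 CPM, belong to PB libraries.

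Relations to the index were computed within cuts, for the 5 genes and the CAST to CAPN1 ratio, 24 in all. CAPN3 had a negative r in each cut: -0.80 in TM, -0.65 in LDM, -0.62 in HM and -0.59 in PB. Of these only TM passed by Pearson's r (adjusted permutation p = 0.0488), and not by rank (rho = -0.74, adjusted permutation p = 0.121). Without TM7 and TM10 its r was -0.59. CAPN1 was negative in each cut too, from -0.73 in HM to -0.44 in LDM, and none passed (lowest adjusted permutation p = 0.14). For CAPN2 Pearson's r was 0.68 in TM, 0.61 in HM, 0.36 in PB and -0.12 in LDM. None of these passed (lowest adjusted permutation p = 0.144). Without TM7 and TM10 the r of CAPN2 in TM was 0.14, and without HM9 and HM2 that in HM was 0.84.

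CAPNS1 rose with the index among the HM libraries, with r = 0.91 and rho = 0.92 (adjusted permutation p = 0.00504 and 0.013, n = 10). Without HM9 and HM2, the libraries farthest from the median index, r was 0.80. In the other cuts its r was -0.33 (LDM), 0.22 (TM) and 0.61 (PB) and none passed; the difference between cuts was not tested. Whether reads of COX7A1, which lies inside the CAPNS1 model, stand in the CAPNS1 row was not tested. The CAST to CAPN1 ratio had r from -0.24 to 0.21 in the 4 cuts and none passed (lowest adjusted permutation p = 0.664). For CAST itself Pearson's r was negative in each cut, from -0.68 in PB to -0.21 in LDM, and none passed (lowest adjusted permutation p = 0.144). The sign in LDM did not hold by rank (rho = 0.07) or without LDM8 and LDM3 (r = 0.14). Without PB10 and PB1 the r in PB was -0.33.

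Markers of other cell types were present in every cut, and none of the listed genes was at 0 in a whole cut. In PB against LDM, 2 of 7 endothelial, 2 of 7 fibroblast and 3 of 5 tested leukocyte genes were higher, 1 of 6 tested adipocyte genes was higher and 1 lower, and 2 of 5 Schwann cell genes were lower. In PB against HM, 5 of 6 smooth muscle and pericyte genes and 3 of 7 endothelial genes were lower. In PB against TM, 4 of 5 Schwann cell genes and 2 of 6 smooth muscle and pericyte genes were lower. Against LDM, 7 of 7 endothelial genes were higher in HM and in TM, 6 of 6 smooth muscle and pericyte genes were higher in HM and 1 of 6 in TM. Summed adipocyte markers ran from 191 to 700.0 CPM in PB, 161 to 369 in LDM, 158 to 539 in HM and 245 to 853 in TM. LPL had the highest mean of the 6 tested adipocyte genes in each cut, 304.6 CPM in PB and 110.2 CPM in LDM. In PB against LDM the higher gene was LPL, the lower gene was CFD and 4 did not pass. Summed endothelial markers ran from 314 to 802 CPM in PB, 322 to 478 in LDM, 393 to 1020 in HM and 308 to 864 in TM. Their part in the CAST and CAPN differences was not tested.

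Of 12 other calpain family genes listed, 11 had a row and 5 passed the filter. Of these 5, 4 differed among the cuts by the F test, where 57.2% of all genes tested did. CAPN6, which lacks the catalytic cysteine, was 8.28 ± 2.97 CPM (SD, n = 10) in PB and 19.7 ± 7.63 CPM in LDM, a log2 difference of -1.25 ± 0.23 (adjusted p = 4.72e-05), and was also lower in PB than in HM and TM. CAPN7 went the other way, with 19.3 ± 3.59 CPM in PB and 11.9 ± 2.63 CPM in LDM (0.69 ± 0.14, adjusted p = 0.000189), and was higher in PB than in HM and TM as well. CAPN10 had the pattern of CAPN1, higher in LDM (8.73 ± 1.71 CPM) than in HM, TM and PB (-0.89, -0.52 and -0.73 log2 units). In PB against LDM 1 of the 5 was higher and 4 were lower, with a median log2 difference of -0.68 beside -0.02 over all genes. CAPN8, CAPN9 and CAPN11 had totals of 53, 4 and 11 counts over the 40 libraries, and CAPN12, CAPN13 and CAPN14 had 0 counts. CAPNS2 was not analysed here.

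Known calpain substrates of the sarcomere and cytoskeleton did not go one way. Of 13 tested (of 15 listed), 4 were higher and 5 lower in PB than in LDM, with a median log2 difference of 0.03 beside -0.02 over all genes. NEB, the nebulin that runs along the thin filament, had 18350.0 ± 2552 CPM in PB and 7748 ± 2371 CPM in LDM (SD, n = 10), a log2 difference of 1.24 ± 0.16 (adjusted p = 2.26e-07). DMD, the dystrophin that ties the cytoskeleton to the membrane, was higher in PB than in LDM by 1.35 ± 0.17 (adjusted p = 1.1e-07). Both are long models, of 23244 and 14417 bases, which belongs beside the length trend given for CAST. MYPN, a Z-disc protein, had the pattern of CAPN1 and CAPN3: 2071 ± 273 CPM in LDM and lower in HM, TM and PB by -0.55, -1.10 and -0.86. TTN was not analysed here.

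Of 11 partners of CAPN3 and genes of membrane repair, 5 differed among the cuts by the F test, where 57.2% of all genes tested did. CMYA5, a large muscle protein, was higher in PB than in LDM by 1.39 ± 0.26 (adjusted p = 5.06e-05), and its model has 13146 bases. ANXA1, an annexin of membrane repair, was higher in PB than in LDM by 1.16 ± 0.28 (adjusted p = 0.0011). TRIM72, the MG53 of membrane repair, was lower in PB than in LDM by -0.35 ± 0.10 (adjusted p = 0.00444). The list had 2 higher, 1 lower and 8 not past the threshold in PB against LDM, and a median of 0.04.

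Lysosomal proteases and their inhibitors are the other candidate system for softening. Of 12 tested genes, 5 differed by the F test, where 57.2% of all genes tested did. In PB against LDM 3 were lower and 9 did not pass. CTSD, cathepsin D, was lower in PB than in LDM (-0.55 ± 0.15, adjusted p = 0.00452), HM (-0.63) and TM (-0.55). CSTB, an inhibitor of cathepsins, was higher in LDM than in the 3 other cuts. CST6 was lowest in HM, with means of 8.33 CPM in HM, 11.3 in PB, 16.1 in LDM and 16.45 in TM. It was lower in HM than in LDM (-0.95 ± 0.25, adjusted p = 0.00357) and higher in TM than in HM (0.98 ± 0.25, adjusted p = 0.0461). TM and LDM differed by 0.03 in CST6 (adjusted p = 0.942). CSTB was lower in PB than in LDM by -0.45 ± 0.12 (adjusted p = 0.00302), where CAST was higher.

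Of 9 caspases and inhibitors of apoptosis, 6 differed among the cuts by the F test, where 57.2% of all genes tested did. In PB against LDM 5 were higher and 1 lower, with a median of 0.61. XIAP, a direct caspase inhibitor, had 89.2 ± 36.1 CPM in PB and 39.7 ± 14.3 CPM in LDM (SD, n = 10; 1.17 ± 0.24, adjusted p = 0.000214). BIRC6 was higher by 0.55 ± 0.16 (adjusted p = 0.00571) and BIRC2 by 1.60 ± 0.41 (adjusted p = 0.00169), the last with an SD of 130.5 CPM around a PB mean of 102 CPM. The models of BIRC6 and BIRC2 have 15078 and 7658 bases, which belongs beside the length trend given for CAST.

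Genes that varied most like each member over the 40 libraries were found by Pearson's r of log2 CPM among 11147 candidates with a symbol. These are descriptions, and the points share library, depth and cut. CAST went with PDS5B, a regulator of cohesin (r = 0.94), ZNF148 (0.92) and RAB11FIP2 (0.91), and with each cut's mean taken out these were 0.90, 0.84 and 0.82. CAPN3 went with RNF34 (0.90), ADSL (0.89) and MYOZ1 (0.89), the last from the fast fibre list. CAPN1 went with CARNS1, the synthase of carnosine (0.85), TMEM94 (0.85) and SLC16A5 (0.84). CARNS1 averaged 375 CPM in LDM and 96.2 CPM in PB. CAPNS1 went with GIT1 (0.81), ATXN7L3 (0.77) and FZR1 (0.76), and CAPN2 with CTNNA1 (0.75), EHD4 (0.75) and GPX7 (0.74).

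Among the 5 genes themselves, CAPN1 and CAPN3 had the highest r over the 40 libraries, 0.64, and 0.53 with the cut means taken out. CAPNS1 and CAST ran opposite ways, with r = -0.70 and, within cuts, -0.56. CAPN1 and CAST had an r of -0.04, and 0.14 within cuts.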

How the data were processed

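The authors deposited 1 table with whole-number read counts and FPKM values per gene for 40 libraries, per the file headers. HISAT2 2.0.5, cutadapt 1.15, HTSeq 0.9.1 and the build Sscrofa11.1 appear in the submitters' processing notes; the strand setting does not, and the sources give no settings. The deposited FPKM equal count over length and library total for 100% of counts above 0 (relative tolerance 0.001), and were used for ratios and for levels between genes, with no pseudocount. The table's lengths were used as given. Symbols came from the table for 14883 genes, and from reference tables for 662 by Ensembl ID and 376 by Entrez ID.

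Libraries were placed in cuts by title. The counts entered edgeR 4.0.16 (R 4.3.3): filterByExpr, TMM, and a robust quasi-likelihood fit of 40 libraries with cut as the factor, an F test and 6 contrasts, adjusted by Benjamini-Hochberg over 11713 genes and a threshold of 0.05. CPM are TMM-normalised; log2 CPM use a prior count of 2. Ratios were tested by permutation (SciPy 1.17.1, 100000 resamples) of mean log2 values. The members, lists and tests were chosen with earlier results of these data known. Named are the 5 members, the 3 genes of each list with the smallest F-test p, the 3 genes most like each member, and fibre genes; other genes were named after their values were seen. Some genes of the lists are not reported here by name. Alternatives were DESeq2 1.42.0 and its size factors, upper-quartile scaling, limma-voom 3.58.1 with quality weights, other filters, a replicate block, the pair of cuts alone, mitochondrial genes out before scaling, each library left out, and HM6, HM9, TM3 and TM7 left out. A gene length correction and other TMM reference libraries (LDM6, PB1) were added after the data were seen. The fit was tested on simulated counts. No libraries of a cut were duplicates: the lowest chi-square per gene was 29.8 over genes with at least 20 counts. Counts without molecular identifiers are not independent molecules. No sequences are shown, as none were used.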

Additional observations from a re-analysis of the deposited data

Results flagged for a closer look

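In HM, the ratio of CAST to the sum of CAPN1 and CAPN2 was 0.431 in HM7, and the next highest library of that cut, HM1, had 0.306. The gap took up a share of 0.525 of the whole HM range, above the limit of 0.466 for 10 values. It was the 1 such case among 40 groups of 10 libraries checked, where chance gives about 1 in 20. HM7 also had the highest CAST to CAPN1 ratio of HM (1.22), the lowest CAPN2 of HM (86.6 CPM) and its highest CAST (133 CPM).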

How the results depend on the processing

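Log2 differences are given here. The CAST calls, the CAPN3 calls and the CAPN1 calls of PB and TM against LDM passed under all alternatives run. Of these, CAPN3 in PB against LDM came nearest to the threshold. With each library left out it ran from -0.57 to -0.38, with adjusted p up to 0.0494. CAPN1 in HM against LDM missed the threshold with upper-quartile scaling (-0.3666) and with no filter (-0.3667), and ran from -0.48 to -0.34 with each library left out. CAPNS1 in PB against HM missed it with mitochondrial genes out before scaling (-0.1937) with the gene length correction (-0.2213) and with LDM6 as the TMM reference (-0.1865), and ran from -0.29 to -0.19 with each library left out; in PB against LDM that range was -0.31 to -0.21. CAPNS1 among the 4 cuts had an adjusted p of 0.121 with mitochondrial genes out, 0.056 with no filter, 0.0846 with LDM6 as the reference and 0.0123 to 0.126 with each library left out (over the threshold without LDM5, LDM7, LDM9, HM4, HM9, TM3, TM5 or TM8). CAPNS1 in PB against TM passed with upper-quartile scaling (-0.2682) and limma-voom (-0.2283), and ran from -0.24 to -0.16 with each library left out, passing without LDM10 or TM9. Genes called in TM against HM numbered 90, 199 by DESeq2, 312 by limma-voom, and 52 to 135 with each library left out, with 52 the lowest.

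Same-numbered libraries had correlations of -0.13 to 0.51 over 60 pairs (median 0.24), 52 of them over 0.1, and 24 of 40 libraries correlated best with their own number, which is a hint from the data and not the design. With the number as a replicate block, CAPNS1 in PB against TM passed (-0.2135, adjusted p = 0.0442), and 213 genes were called in TM against HM; the block changed no other call of the 5 genes.

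Uncalled differences near 0 changed sign. CAPN1 in PB against TM was 0.0082 with DESeq2 size factors, 0.0368 with mitochondrial genes out, 0.0080 by DESeq2, 0.0216 by limma-voom, 0.0177 with the pair alone, 0.0309 and 0.0205 with LDM6 or PB1 as the reference and -0.084 to 0.076 with each library left out. CAPN2 in HM against LDM was -0.0041, -0.0086, -0.0039 and -0.0048 with size factors, mitochondrial genes out, DESeq2 and the pair alone, -0.0393 with the length correction, -0.0375 with LDM6 as the reference and -0.0885 to 0.0774 with each library left out; the last range was -0.0127 to 0.1145 for CAPN2 in TM against HM and -0.0104 to 0.1391 against LDM. CAPNS1 in HM against LDM was 0.0126 with upper-quartile scaling, 0.0122 with no filter, 0.0448 by limma-voom, 0.0290 without HM6, HM9, TM3 and TM7, 0.0130 with PB1 as the reference, and -0.0737 to 0.0305 with each library left out. CAST in TM against HM was 0.0120 with upper-quartile scaling, 0.0032 with LDM6 as the reference and -0.1284 to 0.0374 with each library left out. The log2 CAST ratio, with CAPN1 and CAPN2 summed, was -0.1286 in TM against LDM, -0.0769 in TM against HM and -0.0517 in HM against LDM. For TM against HM the CAST to CAPN1 ratio was -0.0924 without HM6, HM9, TM3 and TM7 and -0.0283 to 0.151 with each library left out. The causes of these shifts were not tested.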
